A study of Homo sapiens with 6 samples.

Results

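The transcripts of 5 STAT genes (STAT2, STAT3, STAT5A, STAT5B and STAT6), of the feedback inhibitors SOCS2 and CISH and of the STAT5 target genes PIM1 and BCL2L1 were compared between K562 cells carrying different SUMO mutants of the transcription factor MYB. These 9 genes were chosen by name and found by their Ensembl identifiers among the 58288 genes of the expression table. All 9 were among the 12634 genes that were tested because their mean over the 6 libraries reached 1 FPKM.

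K562 is a human erythroleukemic line, derived from chronic myelogenous leukemia, that carries the BCR-ABL1 fusion kinase. All cells stably expressed MYB tagged with 3xFLAG and HA under G418 selection at 200 µg/ml, and their endogenous MYB was knocked down with the same MYB siRNA 24 hours before RNA isolation. In the 2KR-MYB rescue (clone 18) the SUMO-acceptor lysines of MYB were replaced by arginine, so that SUMO could not be conjugated to it, and in the ANAA-MYB rescue (clone 5) the motif through which MYB binds SUMO was mutated. There were 3 libraries of each rescue, described as biological replicates, and p-values measure the spread between these libraries only. Each mutant was represented by 1 single-cell clone, so an effect of the mutation and a difference between clones cannot be told apart. Control and knockdown cells without a rescue were not analysed here.

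STAT proteins wait in the cytoplasm in an inactive form, are phosphorylated on a tyrosine by JAK kinases at cytokine receptors, pair through their SH2 domains and bind DNA at palindromic sites called GAS elements. In cells with BCR-ABL1 the fusion kinase activates STAT5 without a cytokine, which makes the STAT5 pair, STAT5A and STAT5B, a well-known support of survival in this leukemia. STAT5 switches on genes that restrain its own pathway, such as CISH and SOCS2, as well as the survival genes PIM1 and BCL2L1.

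Expression was given as FPKM, that is fragments scaled by transcript length and by library size, so levels of different genes can be compared per length. The number of reads behind a value is unknown. The FPKM of all genes added up to 579920 to 601877 per 2KR-MYB library and to 583555 to 633662 per ANAA-MYB library. Differences below are of log2(FPKM + 1), 2KR-MYB minus ANAA-MYB, with the standard error (SE) of limma's moderated test and Benjamini-Hochberg adjusted p-values over the 12634 genes, and a gene passed the test at an adjusted p under 0.01. On this scale the change of a gene with low FPKM is understated. MYB itself, exogenous and remaining endogenous transcripts together, gave 69.0, 61.2 and 67.5 FPKM after rescue with 2KR-MYB against 53.6, 55.3 and 62.0 FPKM after rescue with ANAA-MYB, with overlapping groups (log2 difference 0.21, limma adjusted p = 0.062). All 11 erythroid marker genes of K562 were expressed. Among them GATA1, KLF1 and TFRC passed the test as lower with 2KR-MYB, and the summed level of the list was 1807 to 1923 FPKM with 2KR-MYB and 2020 to 2422 FPKM with ANAA-MYB. Of 14 markers of other cells, 10 stayed under 1 FPKM in every library (MS4A1 at 0), CD3D and LYZ passed as lower with 2KR-MYB and COL1A1 as higher, and the list summed to 41.3 to 46.0 FPKM with 2KR-MYB and to 65.7 to 91.0 FPKM with ANAA-MYB. The part of these differences in the results below was not tested, and in bulk RNA fewer cells of a kind and less RNA per cell cannot be told apart.

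Of the 9 genes, 3 passed the test, and all 3 were lower with 2KR-MYB: STAT5A, CISH and BCL2L1. That is 33.3% of the members against 13.0% of all tested genes (7.42% lower and 5.57% higher with 2KR-MYB). The balance of directions over all genes turned with the scaling, with 949 genes higher and 792 lower after upper-quartile scaling and 849 higher and 861 lower after quantile normalization, while the same number of members passed. The median log2 difference was -0.09 over the members and -0.02 over all tested genes. At an adjusted p under 0.05, 6 members differed, 4 lower and 2 higher with 2KR-MYB, against 26.9% of all tested genes. The 3 libraries of each rescue did not overlap for 7 of the 9 members, but the same was true of 44.9% of all tested genes.

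**Figure D1:**
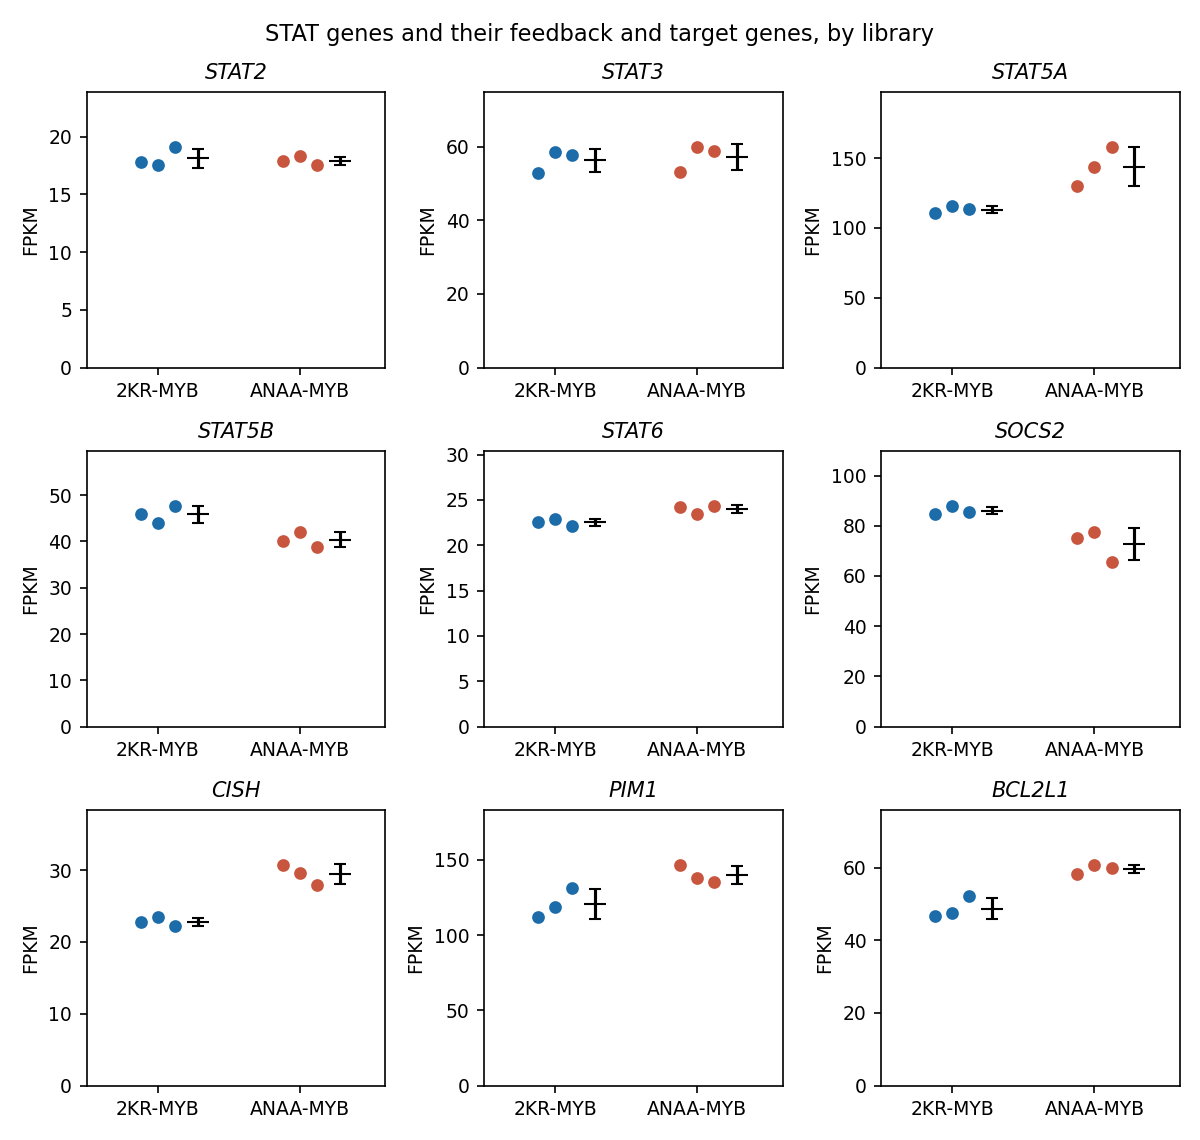
FPKM of the 9 genes in each library (points, 3 of 2KR-MYB in blue and 3 of ANAA-MYB in red), with the mean and SD of each rescue beside the points and every axis starting at 0. The groups overlap for STAT2 and STAT3 and lie apart for the other 7 genes, with the 2KR-MYB points lower for STAT5A, STAT6, CISH, PIM1 and BCL2L1 and higher for STAT5B and SOCS2.

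STAT5A (ENSG00000126561, chromosome 17, 42287439 to 42311943 in RefSeq on GRCh38.p14) was the most abundant of the 5 STAT transcripts in both rescues. The 2KR-MYB replicates 1, 2 and 3 had 110.4, 116 and 113 FPKM, and the ANAA-MYB replicates 130.0, 144 and 158 FPKM. All 2KR-MYB libraries lay below all ANAA-MYB libraries, which also differed more among themselves. The means were 113 ± 2.63 FPKM and 144 ± 13.9 FPKM (SD, n = 3 each), a log2 difference of -0.34 (SE 0.070, 95% interval -0.50 to -0.18, limma adjusted p = 0.0094). This call held without ANAA-MYB replicate 1 (adjusted p = 0.0043) and was lost with any other library left out. The limma adjusted p was then 0.036, 0.027 and 0.025 without 2KR-MYB replicates 1, 2 and 3, and 0.031 and 0.017 without ANAA-MYB replicates 2 and 3. The call was also lost with no filter on low values (adjusted p = 0.040).

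STAT5B (ENSG00000173757, chromosome 17, 42199177 to 42288370), the closely related partner of STAT5A encoded next to it, had its difference in the other direction. It was measured at 46.0, 43.9 and 47.6 FPKM with 2KR-MYB and at 40.2, 42.1 and 38.8 FPKM with ANAA-MYB. The groups did not overlap, with means of 45.8 ± 1.85 and 40.4 ± 1.67 FPKM (SD, n = 3 each). The log2 difference of 0.18 (SE 0.052, 95% interval 0.059 to 0.30) did not pass the test (limma adjusted p = 0.037).

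The balance of the STAT5 pair was also described within each library, where a scaling factor of the library cancels. STAT5A exceeded STAT5B by a ratio of 2.40, 2.63 and 2.38 in the 2KR-MYB libraries and of 3.24, 3.41 and 4.07 in the ANAA-MYB libraries. Every 2KR-MYB ratio was below every ANAA-MYB ratio, with means of 2.47 ± 0.140 and 3.57 ± 0.440 (SD, n = 3 each). The mean log2 ratio differed by -0.53 (2KR-MYB minus ANAA-MYB). Since the groups of both genes were already apart in opposite directions, the separation of the ratios follows from those values, and no p is given for it. Over the fits that leave out a library, the difference ranged from -0.59 to -0.43. Summed over both genes, STAT5 transcripts came to 156, 159.6 and 161 FPKM with 2KR-MYB and to 170.2, 186 and 197 FPKM with ANAA-MYB, so the sums were also apart. The genes overlap by 932 bases in RefSeq and are near-identical paralogues, so reads could have been shared between them in counting, and each value is uncertain to that extent.

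**Figure D2:**
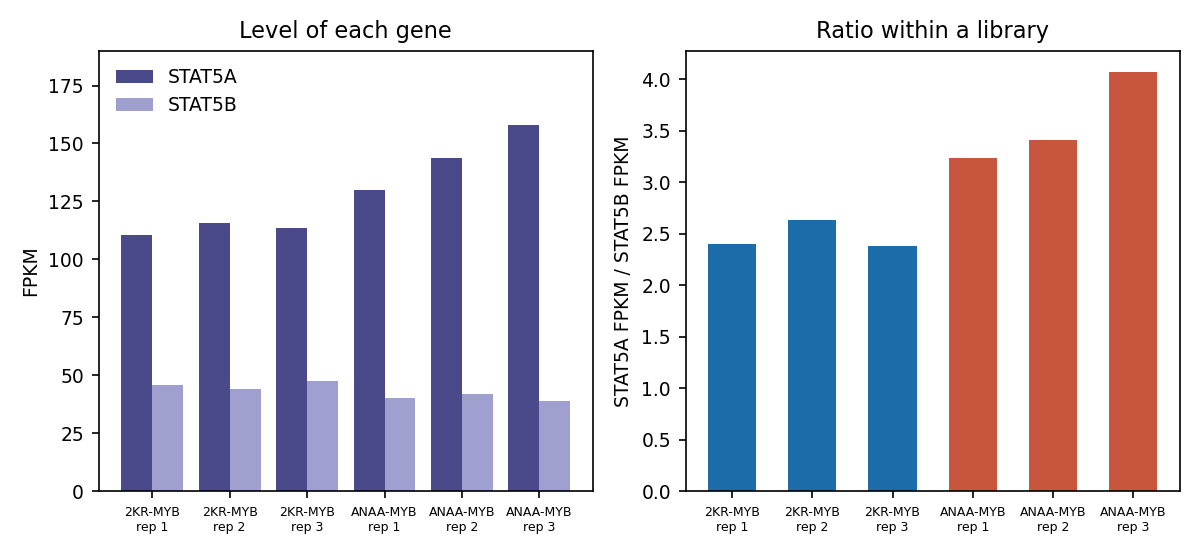
FPKM of STAT5A and STAT5B in each library (left, dark and light bars) and their ratio within that library (right, 2KR-MYB in blue, ANAA-MYB in red), with all bars starting at 0. The ratio lies between 2.38 and 2.63 with 2KR-MYB and between 3.24 and 4.07 with ANAA-MYB.

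The other 3 STAT genes did not pass the test. STAT3 (ENSG00000168610, chromosome 17, 42313324 to 42388442), the mediator of signals of the interleukin-6 family and the next gene beside STAT5A, stood at 52.7, 58.5 and 57.7 FPKM with 2KR-MYB and at 53.1, 59.9 and 58.7 FPKM with ANAA-MYB. The groups overlapped almost fully, and the log2 difference was -0.02 (SE 0.063, 95% interval -0.17 to 0.12, limma adjusted p = 0.82). STAT6 (ENSG00000166888, chromosome 12, 57095408 to 57111362), which carries interleukin-4 and interleukin-13 signals, reached 22.5, 22.9 and 22.1 FPKM with 2KR-MYB, against 24.2, 23.5 and 24.3 FPKM with ANAA-MYB. Its groups were apart, but the log2 difference was only -0.09 (SE 0.046, 95% interval -0.19 to 0.020, limma adjusted p = 0.20). STAT2 (ENSG00000170581, chromosome 12, 56341597 to 56360107), which works with IRF9 in the interferon response, was the lowest of all 9 members in both rescues. Its values were 17.8, 17.5 and 19.1 FPKM with 2KR-MYB and 17.9, 18.3 and 17.5 FPKM with ANAA-MYB, with overlapping groups and a log2 difference of 0.02 (SE 0.054, 95% interval -0.11 to 0.14, limma adjusted p = 0.84).

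CISH (ENSG00000114737, chromosome 3, 50606489 to 50611774) encodes an SH2 protein of the SOCS family that binds activated receptors and is a classical STAT5 target. It was the member with the smallest adjusted p, and its promoter is shown because it was the only one of the members' promoters searched that held the letters of a GAS element with a spacer of 3 bases, TTCNNNGAA. The stretch below is RefSeq sequence of GRCh38.p14, chr3:50611868-50612024 on the minus strand, 5′ to 3′ toward the CISH start, with the matches in capitals.
CISH promoter: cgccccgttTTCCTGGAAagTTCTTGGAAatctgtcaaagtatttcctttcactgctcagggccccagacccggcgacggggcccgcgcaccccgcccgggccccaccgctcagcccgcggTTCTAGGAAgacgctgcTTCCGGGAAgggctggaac
The 4 matches come in 2 pairs, at 241 to 233 and 230 to 222 bases and at 129 to 121 and 112 to 104 bases before the start. TTCNNNGAA reads the same way on both strands in its fixed letters. Among 35116 promoter windows of 250 bases, 2306 (6.57%) held at least 1 match and 5 (0.0142%) held at least 4. A match of letters is a description and not a binding site.

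CISH transcripts reached 22.8, 23.4 and 22.2 FPKM in the 2KR-MYB libraries and 30.7, 29.6 and 27.9 FPKM in the ANAA-MYB libraries. All 2KR-MYB libraries were below all ANAA-MYB libraries. The means were 22.8 ± 0.582 and 29.4 ± 1.40 FPKM (SD, n = 3 each), a log2 difference of -0.35 (SE 0.053, 95% interval -0.47 to -0.23, limma adjusted p = 0.0024). The adjusted p rose to 0.011 without 2KR-MYB replicate 1, to 0.0105 without ANAA-MYB replicate 1 and to 0.012 without ANAA-MYB replicate 2, so the call was lost each time. Without any of the other libraries it stayed between 0.0037 and 0.0089. CISH overlaps MAPKAPK3, a kinase gene, by 255 bases in RefSeq, and MAPKAPK3 had 25.7, 27.1 and 26.3 FPKM with 2KR-MYB against 31.1, 30.8 and 29.7 FPKM with ANAA-MYB (log2 difference -0.21, limma adjusted p = 0.015). Whether strand was used in counting is not given in the sources used here, so reads of the shared bases cannot be assigned.

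SOCS2 (ENSG00000120833, chromosome 12, 93569969 to 93626236), the feedback inhibitor best known for restraining growth hormone signals through STAT5, did not pass, and its difference had the opposite sign to that of CISH. It stood at 84.7, 87.8 and 85.7 FPKM with 2KR-MYB and at 75.3, 77.6 and 65.6 FPKM with ANAA-MYB. The groups were apart, with the lowest value in ANAA-MYB replicate 3. The log2 difference was 0.24 (SE 0.066, 95% interval 0.091 to 0.39, limma adjusted p = 0.029), between means of 86.1 ± 1.58 and 72.8 ± 6.39 FPKM (SD, n = 3 each). SOCS2-AS1, an antisense RNA that overlaps it by 1430 bases, was also apart between the groups, with 5.77, 5.74 and 4.97 FPKM against 4.25, 3.20 and 3.74 FPKM (log2 difference 0.46, limma adjusted p = 0.013). Without knowing the strand setting, reads of the pair cannot be told apart.

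The ratio of both feedback inhibitors was taken after their values had been seen and is given with no test. CISH amounted to 0.269, 0.267 and 0.260 of the SOCS2 FPKM in the 2KR-MYB libraries and to 0.408, 0.381 and 0.426 in the ANAA-MYB libraries. The means were 0.265 ± 0.00468 and 0.405 ± 0.0223 (SD, n = 3 each).

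BCL2L1 (ENSG00000171552, chromosome 20, 31664452 to 31723963) encodes BCL-XL, which protects mitochondria against apoptosis. It was measured at 46.7, 47.4 and 52.1 FPKM with 2KR-MYB and at 58.4, 60.7 and 59.9 FPKM with ANAA-MYB. The groups were apart, and 2KR-MYB replicate 3 was the closest to the ANAA-MYB libraries. The means were 48.7 ± 2.93 and 59.7 ± 1.19 FPKM (SD, n = 3 each), a log2 difference of -0.29 (SE 0.053, 95% interval -0.41 to -0.17, limma adjusted p = 0.0061). The call held without 2KR-MYB replicate 3 (adjusted p = 0.0040) and was lost with any other library left out. The limma adjusted p was then 0.026 and 0.028 without 2KR-MYB replicates 1 and 2, and 0.016, 0.025 and 0.019 without ANAA-MYB replicates 1, 2 and 3. With no filter on low values it was 0.020. In RefSeq, BCL2L1 overlaps BCL2L1-AS1 by 41737 bases (0 FPKM in every library) and LOC124904883 by 3143 bases, which had no value. ABALON, an antisense RNA named for BCL2L1 but not among these overlaps, was also lower with 2KR-MYB. It had 34.8 ± 3.08 against 45.6 ± 0.742 FPKM (SD, n = 3 each, log2 difference -0.38, limma adjusted p = 0.0043). Without knowing the strand setting, reads at this locus cannot be assigned to BCL2L1 alone.

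PIM1 (ENSG00000137193, chromosome 6, 37170152 to 37175428) encodes a serine/threonine kinase that promotes growth and survival downstream of STAT5. Its libraries held 112, 118 and 132 FPKM with 2KR-MYB against 146, 138 and 135 FPKM with ANAA-MYB. The groups did not overlap, although 2KR-MYB replicate 3 came close to ANAA-MYB replicate 3. The log2 difference of -0.21 (SE 0.066, 95% interval -0.36 to -0.062) did not pass the test (limma adjusted p = 0.045), with means of 121 ± 9.90 and 139.9 ± 5.86 FPKM (SD, n = 3 each).

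Ordered by mean FPKM, the members ran from PIM1 and STAT5A through SOCS2, STAT3, BCL2L1, STAT5B, CISH and STAT6 to STAT2 with 2KR-MYB. The ranges of the libraries overlapped between PIM1 and STAT5A, between BCL2L1 and STAT5B and between CISH and STAT6, and were apart for all other neighbours in this order. With ANAA-MYB the order was STAT5A, PIM1, SOCS2, BCL2L1, STAT3, STAT5B, CISH, STAT6 and STAT2. Here the ranges overlapped between STAT5A and PIM1 and between BCL2L1 and STAT3, so the exchange of STAT5A and PIM1 at the top lay within the spread of the libraries in both rescues. BCL2L1 stood below STAT3 with 2KR-MYB, with separate ranges, and level with it with ANAA-MYB.

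RefSeq held promoter windows for 8 of the 9 members, 11 windows in all, with none used for SOCS2. None of those other than CISH held TTCNNNGAA in the 250 bases before the start. A related form with a spacer of 4, TTCNNNNGAA, occurred in 1 STAT5A window, and in 5.38% of all windows. A core of the MYB recognition element, CAACNG or TAACNG searched on both strands, occurred among the members in STAT5A alone, with 1 match in each of its 3 windows, and in 39.3% of all windows. The windows of the first starts overlap and hold the same match, so there are 2 distinct places. They are shown because STAT5A was a member that passed the test in cells differing in MYB, with the match in capitals, on the plus strand of GRCh38.p14 at chr17:42287326-42287355 and chr17:42288328-42288357.
STAT5A upstream start: atgcacccccccCAACAGaacatgcagtct
STAT5A downstream start: gaacggccgccgCTGTTGcgcacttgcagg
In the second stretch the match is on the opposite strand. Binding of MYB or of a STAT factor was not measured in the data used here.

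**Figure D3:**
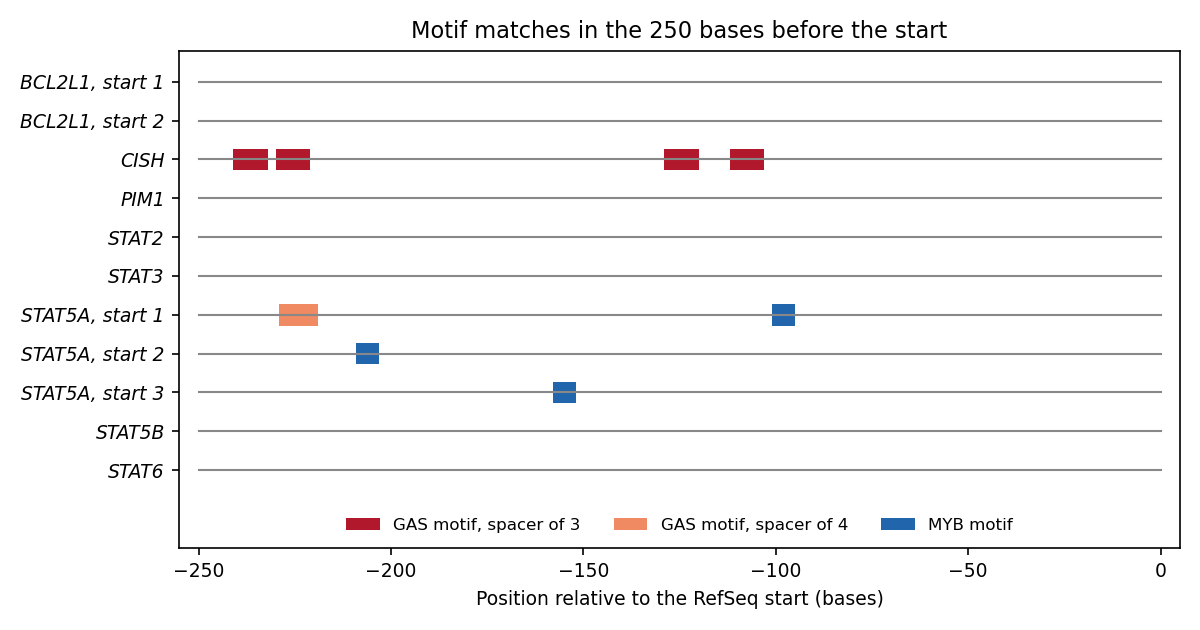
Motif matches (boxes) in the 250 bases before each RefSeq start of 8 members (grey lines, position in bases relative to the start at 0), with TTCNNNGAA in dark red, TTCNNNNGAA in orange and CAACNG or TAACNG in blue. CISH holds 4 dark red boxes and STAT5A is the only other member with a match.

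The rest of the pathway was followed with fixed lists, and 13 of the tested genes in them passed the test. This is a count and not a share. The share that passed within each list is to be read against the 13.0% of all tested genes that did. The kinases and STATs outside the members showed no gene past the threshold. Of 6 listed, 4 were tested and none reached even an unadjusted p under 0.05 in limma. JAK1 was at 22.7 ± 0.317 FPKM with 2KR-MYB and 23.5 ± 0.277 FPKM with ANAA-MYB, JAK2 at 9.26 ± 0.815 and 9.36 ± 0.842, and TYK2 at 41.3 ± 2.92 and 42.2 ± 1.76 (SD, n = 3 each). The lymphoid kinase JAK3 and STAT4 were below the filter. Of 7 genes of the BCR-ABL1 loci and adaptors, 6 were tested and none passed, although 3 had an unadjusted p under 0.05. ABL1 stood at 55.6 ± 1.52 and 61.2 ± 1.37 FPKM and BCR at 34.2 ± 2.59 and 37.1 ± 2.65 FPKM (2KR-MYB and ANAA-MYB, SD, n = 3 each), where FPKM of these loci mix normal and fusion transcripts.

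Cytokine receptors differed in both directions. Of 22 listed, 15 were tested and 4 passed (26.7%), 2 higher and 2 lower with 2KR-MYB. IL2RG, the common gamma chain that works with JAK3, was lower at 5.01 ± 0.604 against 10.1 ± 0.857 FPKM (log2 difference -0.89, limma adjusted p = 0.00047, SD, n = 3 each). OSMR, a receptor chain for oncostatin M, was also lower at 1.15 ± 0.241 against 2.68 ± 0.255 FPKM (-0.78, limma adjusted p = 0.0024). KIT, the receptor of stem cell factor, was higher at 6.81 ± 0.426 against 3.52 ± 0.521 FPKM (0.79, limma adjusted p = 0.0010), and so was IL7R at 3.58 ± 1.47 against 0.631 ± 0.0634 FPKM (1.43, limma adjusted p = 0.0029). The IL7R libraries of 2KR-MYB had the widest relative spread of these receptors. The list's median log2 difference was -0.08.

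Among 16 negative regulators, all tested, 3 passed. SOCS1, a SOCS protein that inhibits JAK kinases directly, was lower with 2KR-MYB at 3.20 ± 0.366 against 6.70 ± 1.30 FPKM (log2 difference -0.86, limma adjusted p = 0.0026, SD, n = 3 each). SH2B3, the adaptor LNK that restrains JAK2, was lower at 19.1 ± 0.350 against 23.7 ± 0.180 FPKM (-0.30, limma adjusted p = 0.0028). CBL, a ubiquitin ligase for activated receptors, was higher at 18.9 ± 0.176 against 14.9 ± 0.468 FPKM (0.32, limma adjusted p = 0.0026). The list's median was -0.03, and its share of passing genes, 18.8%, lay near the 13.0% of all tested genes.

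Of 12 other STAT5 target genes, 10 were tested and 4 passed (40%), again in both directions. PIM2, the relative of PIM1, was lower at 61.1 ± 3.39 against 83.0 ± 4.08 FPKM (log2 difference -0.44, limma adjusted p = 0.0014, SD, n = 3 each), and CCND1, cyclin D1, at 0.458 ± 0.113 against 3.08 ± 0.116 FPKM (-1.49, limma adjusted p = 7.6e-05). CDKN1A, the cell cycle inhibitor p21, was higher at 9.73 ± 1.10 against 3.66 ± 0.334 FPKM (1.20, limma adjusted p = 0.00014), and BCL6, a repressor that STAT5 is known to hold down in lymphoid cells, at 3.17 ± 0.412 against 1.35 ± 0.437 FPKM (0.84, limma adjusted p = 0.0047). The median of the list was 0.03. Of 12 interferon-stimulated genes, targets of the pathway that STAT2 serves, 7 were tested and 2 passed (28.6%). IFITM1, a membrane protein of the antiviral response, was lower at 169 ± 1.10 against 273 ± 3.88 FPKM (-0.69, limma adjusted p = 3.4e-05), while OAS3, an oligoadenylate synthetase, was higher at 2.41 ± 0.229 against 1.20 ± 0.308 FPKM (0.64, limma adjusted p = 0.0083).

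Of the 13 listed genes that passed, 6 passed with each library left out in turn: IL2RG, KIT, PIM2, CCND1, CDKN1A and IFITM1. OAS3 missed the threshold without any 1 library (limma adjusted p 0.015 to 0.027), and BCL6 without any but ANAA-MYB replicate 2 (0.011 to 0.020). IL7R missed it without 2KR-MYB replicate 2 (0.014) or any ANAA-MYB library (0.011 to 0.013), and SH2B3 without replicate 1 or 2 of either rescue (0.010 to 0.013). CBL missed it without 2KR-MYB replicate 1 or 2 or ANAA-MYB replicate 2 (0.012 to 0.013), OSMR without ANAA-MYB replicate 1 or 2 (0.011 and 0.012), and SOCS1 without ANAA-MYB replicate 1 (0.012).

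**Figure D4:**
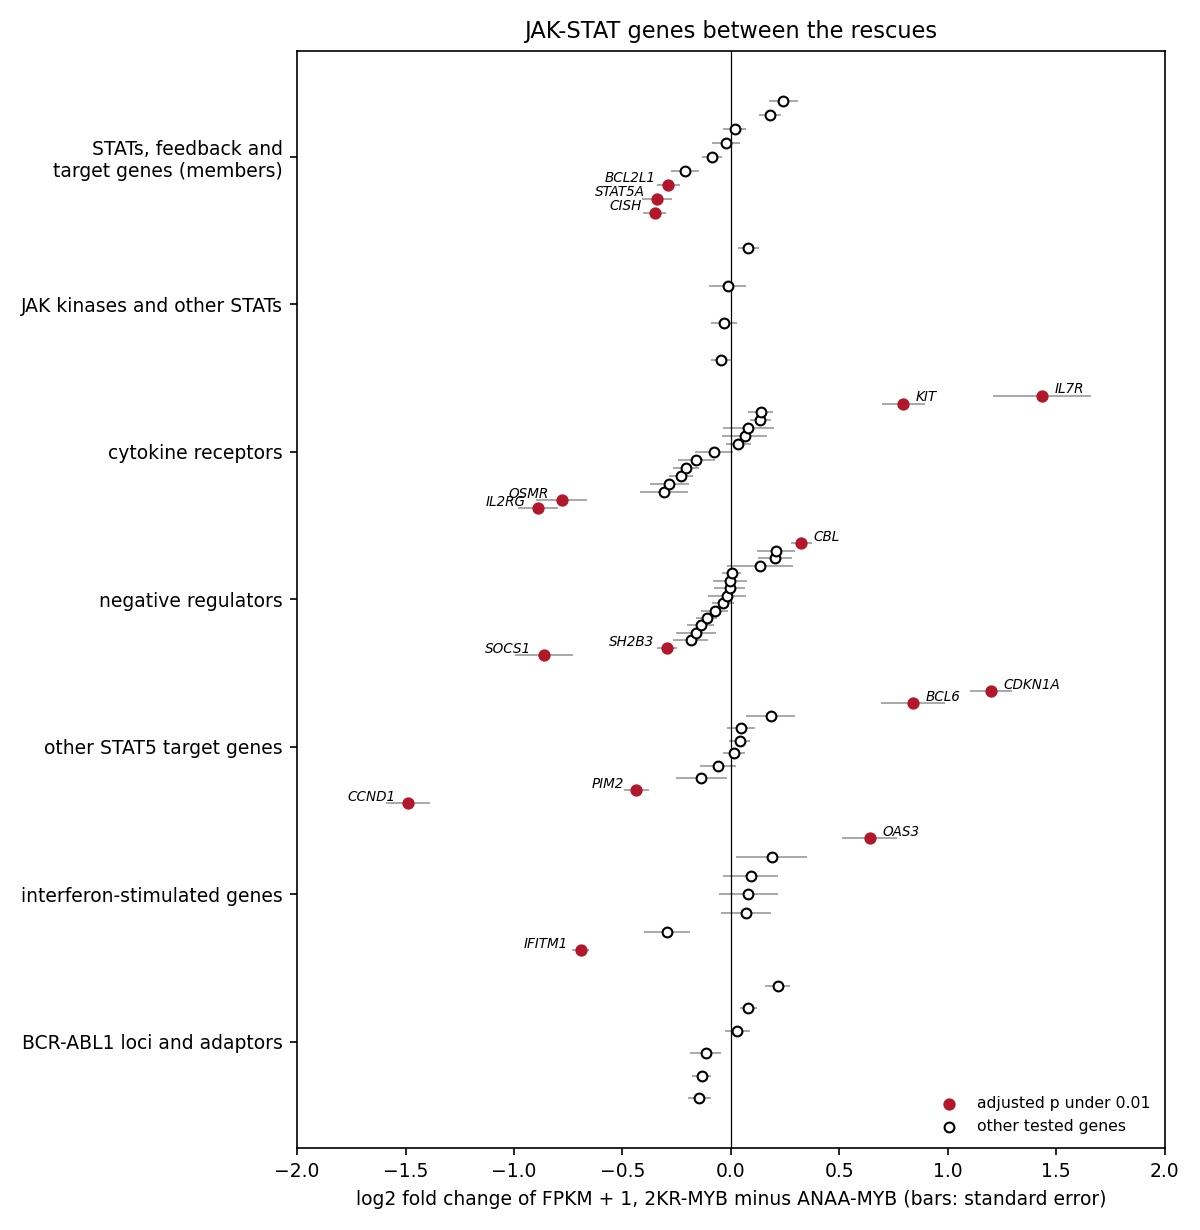
Log2 difference of FPKM + 1 between the rescues (2KR-MYB minus ANAA-MYB, horizontal axis, bars give the SE) for each tested gene of the 9 members and of the 6 lists, with genes at a limma adjusted p under 0.01 filled and named. The filled members lie between -0.35 and -0.29, while the filled genes of the receptors, negative regulators, STAT5 targets and interferon-stimulated genes lie on both sides of 0.

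The members that passed were last set beside the nearest tested genes on their chromosomes, 2 on each side and 12 in all. The search covered the 11541 tested genes with a RefSeq position, and ABALON was not among the 12. Only MANF, an endoplasmic reticulum stress protein gene taken as a neighbour of CISH, passed. MANF starts at 51385291 on chromosome 3 and CISH ends at 50611774, so they are not close together. MANF was higher with 2KR-MYB at 78.0 against 51.6 FPKM (log2 difference 0.59, limma adjusted p = 0.00088), opposite to CISH. Around STAT5A the log2 differences were -0.33 for GHDC (limma adjusted p = 0.056), 0.18 for STAT5B, -0.02 for STAT3 and -0.09 for CAVIN1. Around CISH, TMEM115 was at -0.22 and HEMK1 at -0.07. Beside BCL2L1 the values were -0.24 for MCTS2, -0.14 for ID1, 0.05 for TPX2 and 0.15 for PDRG1.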

How the data were processed

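Poly(A) RNA of K562 rescue cells was sequenced in stranded libraries as pairs of 150 base reads. Per the labels, the authors used bcl2fastq 2.18.0.12, Trimmomatic 0.36, TopHat2 2.1.1 on GRCh38, Cufflinks and Cuffdiff 2.2.1, and deposited FPKM per gene and library. For the annotation of genes, the use of strand in counting and the scaling of libraries, no statement is given in the sources used here. Of the per-sample columns, 12 belonged to no sample analysed here and were not used. Whole reads could not be recovered from the FPKM, so depth is unknown and no counting error is given.

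A gene was kept when its mean over the 6 libraries reached 1 FPKM (21.7% of all). The log2(FPKM + 1) values were fitted with limma 3.58.1 (R 4.3.3, moderated test with a mean-variance trend, no further scaling) and p-values adjusted by Benjamini-Hochberg with a threshold of 0.01. The exact permutation test planned for the ratio of STAT5A to STAT5B is not given, as the values of both genes fix its outcome. Alternatives were another pseudocount, filter, scaling, threshold and robust fit, the replicate number as a block, and each library left out. Python 3.11.15 with pandas 2.3.3, numpy 2.4.6 and matplotlib 3.10.9 was used for the rest. Symbols, positions and promoters came from RefSeq (GRCh38.p14).

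The members and lists were chosen with earlier results of these data known. All members, MYB, the tested genes of the JAK and STAT list, the genes of each other list past the threshold (at most 5 by adjusted p), the 2 nearest tested genes on each side of a member that passed, and the 3 genes most correlated with STAT5A, STAT5B and CISH are named. ABL1, BCR, SOCS2-AS1, ABALON, the RNAs overlapping BCL2L1 and the cell markers were added to these after their values were seen. Some genes of the lists are not reported here by name.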

Additional observations from a re-analysis of the deposited data

How the results depend on the processing

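Of the 9 members, 3 passed under another pseudocount (0.1 FPKM), upper-quartile or quantile scaling, a filter of 5 FPKM and a robust fit. With no filter on low values and with the replicate block, 1 passed in each case (CISH), since STAT5A (-0.34) and BCL2L1 (-0.29) kept their log2 difference but missed the threshold. With an adjusted p under 0.05, 6 passed, PIM1 (-0.21), SOCS2 (0.24) and STAT5B (0.18) being added. With single libraries left out, 0 to 2 members passed, at log2 differences of -0.39 to -0.32 for CISH, -0.41 to -0.27 for STAT5A and -0.34 to -0.26 for BCL2L1. STAT3 had no stable sign: it was 0.021 under upper-quartile and 0.021 under quantile scaling and -0.074 to 0.024 with single libraries left out, and STAT2 ran from -0.018 (without 2KR-MYB replicate 3) to 0.040. The difference in the STAT5A to STAT5B ratio kept its direction in every alternative run.

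Over all genes, 1642 passed, 942 with no filter, 1089 with the replicate block, 3402 at 0.05 and 852 to 1204 with a library left out. Of the listed pathway genes 13 passed, 8 with no filter, 7 with a filter of 5 FPKM and 7 to 11 with a library left out. With the filter of 5 FPKM, 6 of these 13 genes were not tested. Otherwise the cause was not tested. Upper-quartile scaling turned the share of passing genes that were higher with 2KR-MYB from 42.9% to 54.5%, with the members' calls as before. The replicate numbers share only a number: deviations of same-numbered libraries correlated at -0.05 to -0.0026 and those of other pairs at -0.04 to 0.06. Depth is unknown for every value, and each mutant was 1 clone.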

Other observations

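Over the 6 libraries, the tested genes whose log2(FPKM + 1) followed STAT5A most closely were NOL11 (Pearson r 0.996), PREPL (0.996) and SLC35A4 (0.996). For STAT5B they were EGFLAM (0.995), LMF1 (0.990) and LINC01088 (0.988), and for CISH they were TMC6 (0.999), ZBTB47 (0.998) and ZDHHC8 (0.997). These are the closest of 12634 genes over 6 points that belong to 2 clones, and are given as a description with no p.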
